A study of Mus musculus with 16 samples.

Results

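The peaks described here are the 1737 regions with the least H3K27me3 for their input in a ChIP-seq series on mouse embryonic stem cells. They were chosen from the counts themselves: a peak had to lie on chromosomes 1 to 19 other than 11, had to hold at least 100 input counts over 8 input libraries, and had to have a summed H3K27me3 share over summed input share of 0.65 or less. Of 102957 consensus peaks, 96359 lay on those chromosomes, 78653 of these reached the input minimum (eligible peaks), and the 1737 made up 2.21% of the eligible peaks. The low ratio is therefore the way the peaks were picked, and it is given below as a description without a test.

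H3K27me3, histone H3 trimethylated at lysine 27, is written by Polycomb repressive complex 2 and marks silent genes, and in embryonic stem cells it is densest over CpG-rich promoters of developmental regulators. In ChIP-seq, fragments pulled down with an antibody are counted beside fragments of the same sheared chromatin taken without one, the input. A peak list can hold weakly enriched regions as well as dense ones. The set described here is the low end of the eligible peaks by H3K27me3 over input, not by H3K27me3 alone.

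The series sampled 4 lines at 0 h and 48 h of doxycycline, with doxycycline given as the treatment in every label: WT control and WT transgene in a WT genotype, without and with a Firre transgene that can be induced, and, in a Firre KO genotype, the line labelled KO control and, carrying such a transgene, KO transgene. All were grown with LIF, PD0325901 and CHIR99021. Firre is a long non-coding RNA gene of the X chromosome. Each condition had 1 H3K27me3 and 1 input library, so no single condition was replicated, and no label gave separate cultures or clones, so that p-values below measure a spread between libraries that may be technical. Total counts were 10380781 to 14787938 in H3K27me3 and 3340654 to 6244333 in input, with both lowest values in the line labelled KO control at 0 h. Total counts and shares of counts, here and below, cover consensus peaks only, not all reads of a library. In the 1 peak over Firre, input counts at 0 and 48 h were 3 and 6 in WT control, 89 and 104 in WT transgene and 66 and 70 in KO transgene. The line labelled KO control had 37 and 73, which goes against a line without Firre sequence or transgene. Per width and against the mean of all X chromosome peaks, with both times summed, Firre input was 0.694 in WT control (95% exact Poisson interval 0.317 to 1.32, counting error only), an interval that holds 1, and 10.7 to 14.9 in the other 3 lines. Chromosome 11 held 8.44% and 8.25% of input counts in WT control and WT transgene, against 11.1% for the line labelled KO control and 9.97% for KO transgene. The rule left that chromosome out, but it still entered the total counts of every library.

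Promoter sequence was the one stretch of DNA that could be read for these peaks. Of 1737 low-ratio peaks, 32 overlapped the window from 250 bases before to 50 bases after a RefSeq gene start (GRCm38.p6, the same build as mm10), and these windows belonged to 39 starts of 35 genes. Below are the 250 bases before 6 of the starts, 5′ to 3′ on the strand of the gene, with CG dinucleotides in capitals. The first 3 stand for starts dense in CG and the last 3 for starts with few, since the set held both kinds and H3K27me3 in these cells is known for the dense kind.

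Diablo (chr5:123524165-123524414, minus strand, GRCm38.p6): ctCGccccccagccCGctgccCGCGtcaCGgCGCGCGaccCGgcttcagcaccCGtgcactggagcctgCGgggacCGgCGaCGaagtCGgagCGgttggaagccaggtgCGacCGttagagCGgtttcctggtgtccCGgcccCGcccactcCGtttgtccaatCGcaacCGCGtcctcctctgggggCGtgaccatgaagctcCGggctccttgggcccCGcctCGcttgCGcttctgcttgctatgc
Aig1 (chr10:13868958-13869207, minus strand, GRCm38.p6): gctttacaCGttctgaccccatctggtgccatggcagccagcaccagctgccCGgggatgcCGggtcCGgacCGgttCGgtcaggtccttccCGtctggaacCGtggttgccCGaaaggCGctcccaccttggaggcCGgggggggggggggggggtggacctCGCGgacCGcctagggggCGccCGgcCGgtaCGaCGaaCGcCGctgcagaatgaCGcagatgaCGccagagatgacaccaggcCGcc
Clip3 (chr7:30291445-30291694, plus strand, GRCm38.p6): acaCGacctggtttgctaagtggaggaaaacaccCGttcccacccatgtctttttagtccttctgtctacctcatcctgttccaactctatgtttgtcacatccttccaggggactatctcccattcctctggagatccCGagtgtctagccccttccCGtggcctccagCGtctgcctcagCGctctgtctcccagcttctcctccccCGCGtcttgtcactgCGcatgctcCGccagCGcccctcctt
Olfr1354 (chr10:78916592-78916841, plus strand, GRCm38.p6): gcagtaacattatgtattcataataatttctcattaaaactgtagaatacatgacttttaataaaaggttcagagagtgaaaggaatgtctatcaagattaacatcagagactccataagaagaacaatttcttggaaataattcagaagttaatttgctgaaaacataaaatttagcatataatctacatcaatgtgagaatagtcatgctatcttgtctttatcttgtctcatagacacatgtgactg
Defb48 (chr14:62984511-62984760, minus strand, GRCm38.p6): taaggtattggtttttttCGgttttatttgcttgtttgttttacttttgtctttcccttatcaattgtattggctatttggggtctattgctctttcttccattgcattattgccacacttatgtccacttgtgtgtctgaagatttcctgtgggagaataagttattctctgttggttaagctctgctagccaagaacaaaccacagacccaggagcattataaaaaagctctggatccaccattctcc
C1rb (chr6:124570180-124570429, plus strand, GRCm38.p6): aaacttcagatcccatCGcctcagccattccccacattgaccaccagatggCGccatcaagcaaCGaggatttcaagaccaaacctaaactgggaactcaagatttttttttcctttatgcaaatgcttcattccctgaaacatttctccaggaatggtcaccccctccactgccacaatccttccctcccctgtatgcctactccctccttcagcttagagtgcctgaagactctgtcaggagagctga

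The stretch before Diablo, a mitochondrial protein released in apoptosis, held 30 CG dinucleotides, that before Aig1 24 and that before Clip3, a cytoplasmic linker protein, 11. The stretch before the odorant receptor gene Olfr1354 held 0, that before the beta-defensin gene Defb48 1 and that before C1rb, a complement protease gene, 3. Across all 39 starts, the 250 bases held a median of 4 CG and 11 of 39 (28.2%) held 10 or more. The same share was 31.8% for the 9141 starts in other eligible peaks and 37.8% for all 29107 starts on the same chromosomes. Because 1361 of the 1737 low-ratio peaks had a summed input count under 250, other eligible peaks under that count are given beside them where depth matters. Of the 32 promoter peaks, 15 were under 250, and 6 of their 18 starts (33.3%) held 10 or more CG, against 10.4% (71 of 684) in other eligible peaks under 250. Those of the 6 with 16, 26, 29 and 42 CG were overlapping windows in the 1 peak over Alas1 and 4930500F10Rik. Starts in 1 peak are not independent. In the 17 promoter peaks at 250 or more the share was 23.8% (5 of 21 starts). That is below the 31.8% in other eligible peaks of all depths, where 684 of 9141 starts were in peaks under 250. The direction thus differed between the depths, but on few starts, and under 250 largely on that 1 peak. The letters GGGCGG, searched on both strands and overlapping the CG count, occurred before 10 of 39 starts (25.6%), against 29.8% in other eligible peaks and 32.7% of all starts. The letters CCAAT, searched on both strands, occurred before 13 of 39 starts (33.3%), against 30.2% and 33.7%.

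Both kinds of start were present, and the peaks over the CG-dense starts had the lower ratios. The 7 peaks whose richest start held 10 or more CG had ratios of 0.562 to 0.644 with a median of 0.575, and the other 25 had ratios of 0.551 to 0.646 with a median of 0.629. CPM are counts in a peak for every 1000000 counts of the library in all consensus peaks. On a scale of CPM per kb of peak width, with 8 libraries summed, input had a median of 2.57 in both groups. H3K27me3 on the same scale had a median of 1.46 in the 7 CG-dense peaks and of 1.61 in the other 25. Both groups were chosen by the ratio, so their difference carries no test.

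Of all starts in the set, 1 of Alas1 held the most CG, 42. The peak over it had the highest ratio of the 7 CG-dense peaks, 0.644. The Diablo peak (chr5:123523668-123526068) is given in full as an example of a CG-dense start. In the order WT control, WT transgene, the line labelled KO control and KO transgene, with 0 h before 48 h, its H3K27me3 CPM were 3.30, 3.77, 3.27, 4.27, 3.28, 3.15, 3.76 and 3.11. Its input CPM in the same order were 6.95, 5.01, 5.62, 6.09, 7.48, 5.93, 7.60 and 4.48. Every input library lay above every H3K27me3 library, and the ratio over the 8 conditions was 0.583 ± 0.118 (SD, n = 8). The same libraries chose the peak for its low ratio. Separation of the assays, here and in the peaks below, therefore describes that choice and does not test it.

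The Aig1 peak (chr10:13868376-13869805) had H3K27me3 CPM of 2.77, 2.10, 1.48, 2.06, 2.31, 2.18, 2.51 and 1.49 in that order, against input CPM of 3.56, 4.85, 3.24, 3.52, 4.49, 3.53, 3.8 and 2.82. Here too the assays did not overlap, as in 3 of the 7 CG-dense and 12 of the other 25 promoter peaks, and the ratio was 0.572 ± 0.113 (SD, n = 8). No such count was made over all eligible peaks. The Clip3 peak (chr7:30290743-30292182) had a ratio of 0.572 ± 0.150 (SD, n = 8), with 0.928 in WT transgene at 48 h and 0.448 to 0.588 in the other 7 conditions. The peak over the shared start region of Smpd2, a sphingomyelinase gene, and Ppil6 (chr10:41488653-41491147) had a ratio of 0.586 ± 0.102 (SD, n = 8). The other 3 CG-dense peaks lay over Atp8b2, a phospholipid flippase gene, over Gm32052, and over Alas1, the first enzyme of haem synthesis, with its neighbour 4930500F10Rik. Their summed ratios were 0.575, 0.5996 and 0.644, and Alas1 was the one CG-dense peak that reached 1 in a condition, with 1.01 in the line labelled KO control at 48 h.

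The CG-poor starts belonged to genes of varied kinds, given here without a list or test behind them. They included the odorant receptors Olfr1354, Olfr169 and Olfr45, the lectin-like receptors Klri1 and Klrb1b of lymphoid cells, the interleukin receptor subunit Il18rap, the liver esterase Ces1e, the mucin Muc13, the meiosis gene Stra8, the nuclear pore gene Nup93, the lipocalin Lcn12, Creb3l3, Ttc23l, Pate14 and a number of predicted genes. The Olfr1354 peak (chr10:78916061-78917200) had a summed ratio of 0.602 and 0.616 ± 0.169 (SD, n = 8) over conditions. The C1rb peak (chr6:124569490-124570927) had the lowest ratio of the 25, 0.551, and 0.554 ± 0.0988 (SD, n = 8) over conditions. None of the 32 promoter peaks passed the adjusted threshold of edgeR's quasi-likelihood test for time, background, transgene or induction. Their background log2 differences ran from -0.32 to 0.48, the largest at Muc13 (0.48 ± 0.15, SE; adjusted p = 0.0555).

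The rule fixed the ratio and an input minimum of 100 counts, and the ratio can be low through much input or through little H3K27me3. Both counts entered the rule, so the levels below describe the choice of peaks and carry no test. In CPM per kb, the median input was 2.75 in the low-ratio peaks and 2.11 in the other 76916 eligible peaks, a ratio of medians of 1.30, and the median H3K27me3 was 1.70 against 1.86, a ratio of medians of 0.914. Input lay above the eligible median in 1733 of the 1737 (99.8%), while H3K27me3 lay below its eligible median in 1278 (73.6%). The peaks were also narrow, with a median width of 1301 bp against 3113 bp. Compared only with other eligible peaks under 250 summed input counts, the corresponding ratios of medians were 1.25 for input, 0.935 for H3K27me3 and 0.768 for width.

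**Figure D1:**
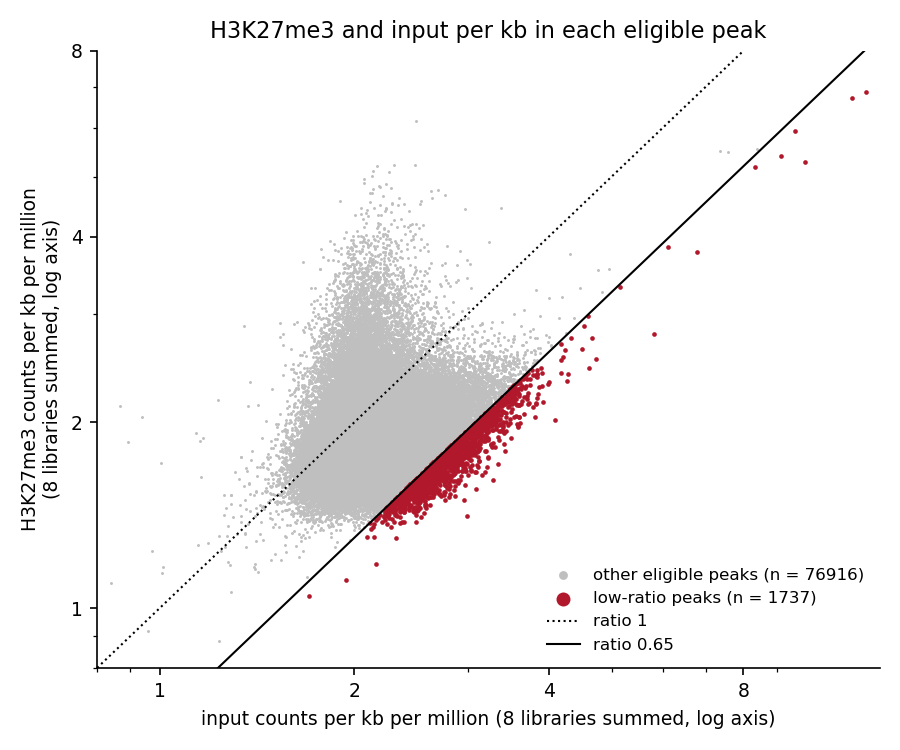
Each point is 1 eligible peak, with input on the horizontal and H3K27me3 on the vertical log axis, both in CPM per kb over 8 libraries; red points are the 1737 low-ratio peaks, grey points the other 76916, and the lines mark ratios of 1 and 0.65. The red points continue the lower right edge of the grey cloud, with a median input of 2.75 against 2.11, and a thin tail reaches an input of 12.4.

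The 95% bounds of the ratio, from exact binomial intervals that cover counting error only, were wide for a single peak: their medians were 0.509 and 0.760, and in only 15 peaks did the upper bound stay at or below 0.65. The same counts chose the peaks, and the bounds do not allow for that choice. Of these 15, 12 overlapped a gene, where 52.6% of all low-ratio peaks lay in a gene span. The genes included Nfic, a nuclear factor I transcription factor gene, the phosphoinositide kinase gene Pik3c2b, the calcium channel gene Trpc1, the nucleotide sugar transporter gene Slc35d1 and the trafficking gene Rab11fip1. A ratio under 1 is relative to the totals over all peaks, which the densely marked peaks raise. The eligible median, 0.866, was itself under 1. The authors' deposited fold enrichment was above 1 in every low-ratio peak (1.27 to 2.36, median 1.42, against a median of 1.56 in other eligible peaks). A region is listed as a peak for being enriched, so a fold above 1 follows from the listing and tests nothing.

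At the limit the ratios were continuous. The 5 peaks just inside were at 0.64994 to 0.649995 and included peaks in Mctp1 and G370120E05Rik, with input counts of 169 to 383. The 5 just outside were at 0.65003 to 0.65012, with input counts of 124 to 355, and included peaks in Gpr4, a proton-sensing receptor gene, and Anks1b. The 95% intervals of the peaks on both sides overlapped.

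Low-ratio peaks were mostly shallow. They made up 4.53% of eligible peaks with 100 to 150 input counts, 4.61% with 150 to 200, 2.59% with 200 to 300, 1.11% with 300 to 500 and 0.201% with 500 to 1000. With 1000 or more, 1 of 9091 eligible peaks qualified, in the immunoglobulin heavy chain locus Igh (chr12:114768789-114779311). That peak spanned the gene segment Ighv1-24 and held 1685 input and 2430 H3K27me3 counts. Its ratio was 0.639 (95% interval 0.60005 to 0.680), and per condition 0.643 ± 0.0582 (SD, n = 8). H3K27me3 CPM there were 21.4 to 25.2 and input CPM 33.5 to 39.7, so the assays did not overlap.

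**Figure D2:**
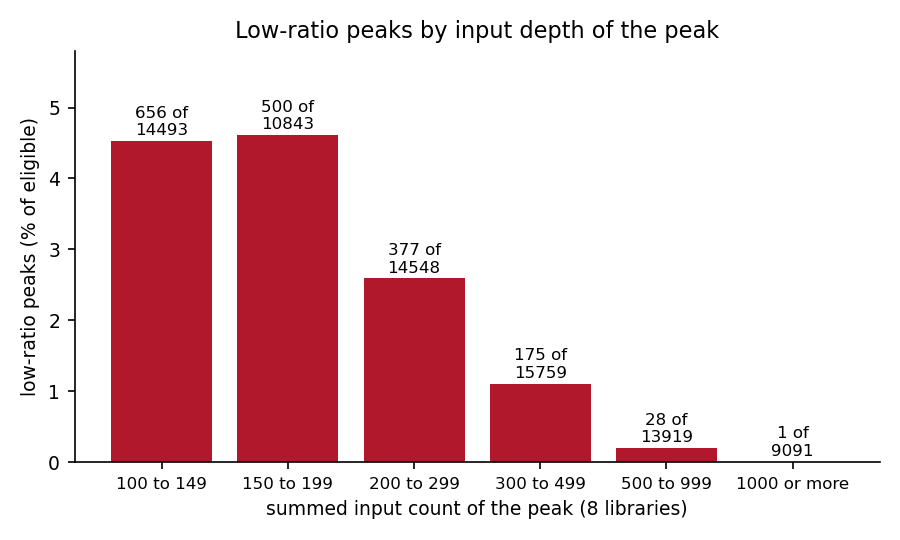
Bars give the share of eligible peaks, in percent, that were low-ratio peaks, by the summed input count of the peak over 8 libraries, with the numbers above. The share was highest, 4.61%, at 150 to 199 counts and 0.011% at 1000 or more, where 1 of 9091 peaks qualified.

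The lowest ratio, 0.473 (95% interval 0.390 to 0.574), belonged to a peak without a gene within 2 kb (chr6:67133582-67135107). Its H3K27me3 CPM were 2.23, 2.46, 1.56, 1.45, 2.70, 2.34, 2.59 and 2.03 in the order of lines and times above, and its input CPM 5.01, 5.68, 2.90, 3.68, 6.29, 3.05, 5.62 and 4.98. No H3K27me3 library reached the lowest input library, although input itself ran from 2.90 to 6.29. The next gene-bearing peaks were in 9530026P05Rik (chr6:93100757-93101918; 0.491), in Pramel35 of the Prame-like family (chr5:93807883-93808548; 0.493), in Nfic (chr10:81431130-81432520; 0.506) and in Slc35d1 (chr4:103221842-103223543; 0.506). In 9530026P05Rik a second peak (chr6:92965057-92966832) was at 0.554. Of the 10 lowest, 9 were below 1 in every condition, and 1 peak without a gene (chr8:107670996-107671899) reached 1.05.

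A small tail had much more input per kb than the eligible median. Input per kb was more than 1.5 times the eligible median in 289 low-ratio peaks (16.6%) and in 0.653% of the other eligible peaks. The highest was in Gm7827, a predicted protein-coding gene (chr8:71131723-71133299), with 12.4 CPM per kb of input and 6.85 of H3K27me3. Its H3K27me3 CPM were 11.3, 10.6, 9.80, 10.7, 9.15, 12.03, 11.2 and 11.3 and its input CPM 20.1, 21.4, 19.2, 20.2, 17.7, 17.2, 19.99 and 19.4. The assays did not overlap, and H3K27me3 in this peak was far above the eligible median of 1.86 CPM per kb although its ratio was 0.554.

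A second Gm7827 peak (chr8:71129520-71130191) had 9.15 CPM per kb of input and a ratio of 0.591, and 3 of the 8 eligible peaks of that gene were low-ratio peaks. Others with high input were 1 peak in Mob3b (chr4:35071689-35072029; 9.60) and 2 without a gene (chr7:103288379-103288736; 11.8, and chr13:69079694-69080063; 9.97). The genes Mup5 and Mup-ps16, of the repeated major urinary protein family, lay in a run of 4 low-ratio peaks on chromosome 4 (61798345 to 61855603) with input of 3.35 to 4.66 CPM per kb. The sources used here do not say how reads from near-identical gene copies were assigned, and counts in such families are uncertain.

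The low ratio recurred in every line. Summed over the 1737 peaks it was 0.631 and 0.635 in WT control at 0 and 48 h, 0.598 and 0.611 in WT transgene and 0.625 and 0.627 in KO transgene, and the line labelled KO control had 0.619 and 0.627. The mean was 0.622 ± 0.0119 (SD, n = 8). Over the same conditions the median of the other eligible peaks was 0.888 to 0.908. Single peaks were far noisier: 1094 of the 1737 (63.0%) were below 1 in all 8 conditions, against 14.9% of the other eligible peaks, and 3 were at or below 0.65 in all 8. These values share the libraries of the rule and describe it only.

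**Figure D3:**
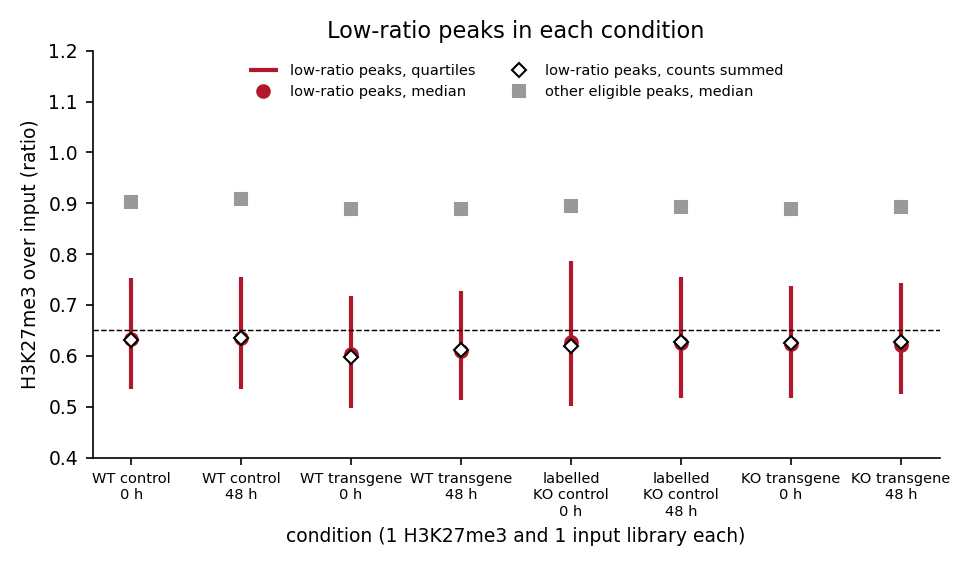
For each of the 8 conditions the plot gives the H3K27me3 over input ratio of the low-ratio peaks as median (red circle), quartiles (red line) and value with counts summed (open diamond), and the median of other eligible peaks (grey square); the dashed line is the limit of 0.65. The summed values lie between 0.598 and 0.635 and the grey squares between 0.888 and 0.908.

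The same rule applied at one time and read at the other uses libraries that did not set the ratio, apart from the input minimum, which counted both times. The consensus peaks themselves may have been called with libraries of both times. Chosen at 0 h alone, 4009 peaks had a median ratio of 0.613 at 0 h and of 0.761 at 48 h, where all eligible peaks had 0.875. At 48 h, 592 of the 4009 (14.8%) were again at or below 0.65, against 4.09% of all eligible peaks. Chosen at 48 h, 3214 peaks had a median of 0.618 at 48 h and of 0.742 at 0 h, where all eligible peaks had 0.870, and the same 592 were 18.4% of them against 5.10% of eligible peaks. In the libraries of the other time, the chosen peaks thus lay below the eligible median in 82.3% and 83.8% of cases, but at ratios nearer to it. The 2 times of a line share that line's cells, so they are not independent, and these values describe recurrence without a test.

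**Figure D4:**
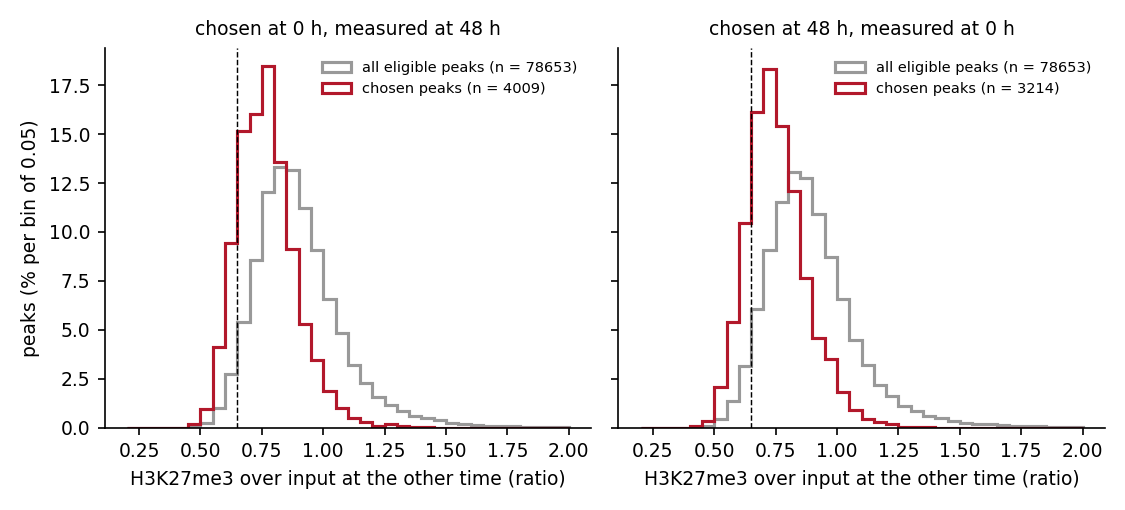
Histograms of the H3K27me3 over input ratio at the time not used for choosing, in percent of peaks per bin of 0.05, for peaks chosen at 0 h (left, 4009 peaks) and at 48 h (right, 3214 peaks) in red and all 78653 eligible peaks in grey. The red medians, 0.761 and 0.742, lie between the limit of 0.65 (dashed) and the grey medians of 0.875 and 0.870.

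Between conditions, the share of a library's consensus-peak counts that fell in the 1737 peaks moved little. They took up 0.579% of the summed peak length, 0.465% of H3K27me3 counts and 0.748% of input counts. Of 9 comparisons (time, background and transgene in H3K27me3, in input and in the ratio of shares), each an exact two-sided permutation of 4 against 4 libraries with a smallest possible p of 0.0286, 1 reached that value. The input share was 0.735% ± 0.00980 (SD, n = 4) in the KO background and 0.760% ± 0.00415 (SD, n = 4) in WT, with an exact p of 0.0286, 0.257 after adjustment over the 9, and 0.333 when whole lines were exchanged. Counted outside chromosome 11 and the sex chromosomes, the input shares were 0.828% and 0.835% with an exact p of 0.171. The ratio of shares rose from 0 to 48 h in 4 of 4 lines, by 0.0067 on average, with an exact sign-flip p of 0.125, the smallest that 4 lines allow.

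Peak by peak, 48 h against 0 h of doxycycline gave no call in these peaks. With edgeR's quasi-likelihood test adjusted over all peaks, 0 of 1737 passed for time in H3K27me3, where 0.109% of all 102957 peaks did. At an unadjusted p under 0.05 there were 82 low-ratio peaks (4.72%), against 6.93% of all peaks, and DESeq2 and limma-voom also called 0. The median log2 change was 0.00 in the members and 0.00 over all peaks. The smallest adjusted p, 0.125, belonged to a peak without a gene on chromosome 13 (69442138 to 69443432; 0.73 ± 0.20, SE), and the next to Fstl5, a follistatin-like gene (0.75 ± 0.21, SE; adjusted p = 0.140).

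The transgene and its induction gave no call either. For transgene lines against lines labelled without it, 0 of 1737 passed by edgeR, where 0.0748% of all peaks did, with 125 at an unadjusted p under 0.05 (7.20%, against 7.79% of all peaks) and 0 by DESeq2 or limma-voom. For induction, the 48 h change in transgene lines minus that in the other lines, 0 of 1737 passed, where 0.00583% of all peaks did, with 92 at an unadjusted p under 0.05 (5.30%, against 4.91% of all peaks) and 0 by DESeq2 or limma-voom. The largest induction values were imprecise: Igf1r, the insulin-like growth factor receptor gene, had 1.63 ± 0.47 (SE) with an adjusted p of 0.764. The Firre input of the line labelled KO control, one of those other lines, is given above. In a fit without that line, the counts for time, transgene and induction were again 0. For these peaks the median SE was 0.19 for time and transgene and 0.38 for induction.

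The KO against the WT background was the one contrast with calls. In H3K27me3, 14 of 1737 low-ratio peaks were higher and 7 lower in the KO background by edgeR, which is 1.21% of them, where 4.42% of all peaks, 1.67% of peaks off chromosome 11 and 1.94% of other eligible peaks were called. With under 250 input counts, 17 of 1361 low-ratio peaks (1.25%) and 0.84% of other eligible peaks were called. The fit took the 2 times of a line as separate libraries although each background had only 2 lines, and an exchange of whole lines cannot give a p below 0.333. The genes named below were chosen by size of change and direction, not by role. Leaving chromosome 11 out of the fit left 5 higher and 2 lower, scaling by total counts gave 9 higher and 12 lower, and DESeq2 called 0. With input counts as an offset 0 were called, and without the line labelled KO control 4 were higher and 1 lower, of which only Tns1 was among the 21. Leaving out 1 library at a time gave 10 to 17 calls, with 10 without WT control at 0 h, 11 without the line labelled KO control at 48 h, and 12 without that line at 0 h, without WT control at 48 h or without WT transgene at 48 h. These totals include other peaks. Of the 21 themselves, 7 (without WT control at 0 h) to 12 (without WT transgene at 0 h) were still called. In input itself 0 of 1737 passed by edgeR, where 1.94% of all peaks and 0.0987% of peaks off chromosome 11 did, with 98 at an unadjusted p under 0.05 (5.64%, against 8.30% of all peaks) and 0 by DESeq2.

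The largest rise was in Tnrc18, a nuclear chromatin protein gene (chr5:142796562-142798004). H3K27me3 CPM were 1.38 and 2.32 in WT control at 0 and 48 h, 1.11 and 1.68 in WT transgene and 2.82 and 2.50 in KO transgene, and the line labelled KO control had 3.76 and 3.63. All 4 KO libraries lay above all 4 WT libraries, and the log2 difference was 0.99 ± 0.19 (SE; edgeR adjusted p = 5.9e-05). Input CPM were 3.84 to 4.96 in WT and 2.64 to 4.15 in KO, a log2 difference of -0.35 ± 0.22 (SE). Tnrc18 was the 1 low-ratio peak called for background in H3K27me3 over input (1.29 ± 0.29, SE; adjusted p = 0.0203), where 0.07% of all peaks were called. The summed ratio there was 0.370 in WT and 0.901 in KO. That call was lost when 1 condition was left out, except WT control or KO transgene at 48 h, and without the line labelled KO control.

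A peak without a gene on chromosome 7 (73421947 to 73423631) rose by 0.95 ± 0.18 (SE; adjusted p = 3.4e-05). Its H3K27me3 CPM were 1.77, 2.17, 1.63 and 1.83 in WT and 3.56, 4.52, 3.37 and 2.64 in KO, without overlap, and its input differed by 0.00 ± 0.21 (SE). In Epb41l4b, a FERM-domain protein gene (chr4:57005650-57007236), H3K27me3 CPM were 1.92, 2.61, 1.56 and 1.98 in WT and 2.89, 4.04, 3.14 and 3.25 in KO. The groups did not overlap, and the log2 difference was 0.75 ± 0.18 (SE; adjusted p = 0.00162), with an input difference of 0.27 ± 0.21 (SE). Without the line labelled KO control these 2 values and that of Tnrc18 were 0.79, 0.85 and 0.92, with adjusted p of 0.111, 0.0572 and 0.0720.

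Of the other 11 rises, those in genes were in Gm41004, Dip2c, 5031425E22Rik, Ndufs4 (a subunit of respiratory complex I), Vax2 (a homeobox gene of the ventral eye), Iqce, Gm30590, Tns1 (tensin, at focal adhesions), Rims2 (a presynaptic scaffold) and Rhbg (an ammonium transporter), by 0.50 to 0.85 on the log2 scale. The Vax2 peak (chr6:83719301-83720464) had 1.38, 1.52, 1.41 and 1.45 CPM in WT and 2.02, 2.58, 2.2 and 2.43 in KO, without overlap. The Gm41004 rise rested on the line labelled KO control: its CPM were 2.70 and 2.34 there and 1.18 and 1.49 in KO transgene, against 0.58 to 1.60 in WT, and the value without that line was 0.12. The Gm30590 value also dropped, from 0.61 to 0.29.

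Falls were called in Ptpn13, a tyrosine phosphatase gene, in 2810404M03Rik, Nxpe4 and Smoc1, a secreted matrix protein gene, and in 3 peaks without a gene, by -0.80 to -0.37. The largest was on chromosome 1 (157973881 to 157975266), with 2.92, 2.32, 2.38 and 3.66 CPM in WT and 1.25, 1.69, 2.04 and 1.35 in KO, a log2 difference of -0.80 ± 0.20 (SE; adjusted p = 0.00415). In Ptpn13 (chr5:103541828-103542849) the values were 3.00, 2.32, 1.93 and 2.51 in WT and 0.87, 1.61, 1.80 and 1.15 in KO, a difference of -0.79 ± 0.22 (SE; adjusted p = 0.0120). The groups did not overlap in either peak. Of all 21 calls, 16 had groups that did not overlap and 17 had the same direction in all 4 pairs of matched lines and times. The same libraries made the calls, so these counts describe them and do not test them. No such count was made over all peaks. Input differences at the 21 ran from -0.40 to 0.29, and 10 had the sign of the H3K27me3 difference. In 14 of 14 rises the summed ratio of the KO libraries alone was over 0.65, and in 6 of 7 falls that of the WT libraries alone was. The ratio limit and the calls used these same libraries, so this largely follows from how the peaks were chosen.

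**Figure D5:**
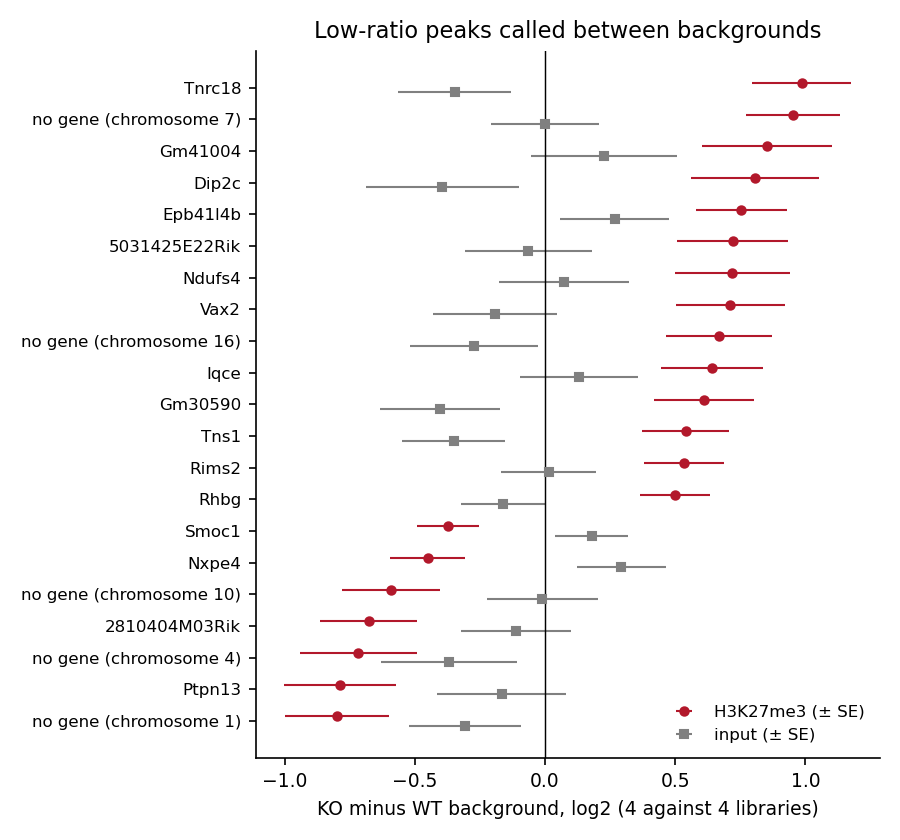
Log2 difference of the KO minus the WT background (4 against 4 libraries) with its SE, in H3K27me3 (red circles) and input (grey squares), for the 21 low-ratio peaks called in H3K27me3, named by gene. The H3K27me3 values run from -0.80 to 0.99, and the input values stay between -0.40 and 0.29.

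The remaining tests on input and on H3K27me3 over input gave no call in the low-ratio peaks. In input 0 passed by edgeR or DESeq2 for time and induction, where 0% of all peaks did, and 0 for transgene, where 0.00606% did, with 109, 83 and 80 at an unadjusted p under 0.05. These are 6.28%, 4.78% and 4.61% of the low-ratio peaks, against 4.96%, 4.67% and 5.43% of all peaks. In H3K27me3 over input 0 passed by edgeR for time and for transgene, where 0.00194% and 0.000972% of all peaks did, with 88 and 93 at an unadjusted p under 0.05 (5.07% and 5.35%, against 5.03% and 5.6% of all peaks).

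Low-ratio peaks lay in and outside genes. Of the 1737, 914 (52.6%) lay in a gene span, 86 more within 2 kb of one and 737 had no gene that near. Within 2 kb of a gene were 57.6%, against 60.5% of other eligible peaks. Among peaks under 250 input counts, 55.9% of low-ratio and 53.7% of other eligible peaks lay that near, and within 10 kb 71.2% and 65.7%. For protein-coding genes the shares under 250 were 43.5% and 40.03% within 2 kb and 53.7% and 46.9% within 10 kb. For long non-coding RNA genes they were 12.8% and 13.9% within 2 kb and 21.6% and 21.2% within 10 kb, and for pseudogenes 3.38% and 3.05%, and 10.6% and 7.84%. Promoter windows were overlapped by 1.84% of low-ratio and 8.67% of other eligible peaks, and under 250 by 1.10% and 1.93%. These shares carry no test. The annotation held gene spans without exons, so exonic and intronic positions are not given.

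The peaks were scattered over 859 genes, of which 759 held 1, 84 held 2 and 16 held 3 or more. Those with 4 were Arhgef3, Ctnna3, an alpha-catenin, Erc2, a presynaptic scaffold, Gphn, which anchors inhibitory receptors, and the transcription factor Sox6. In Gphn the 4 were 30.8% of 13 eligible peaks and in Arhgef3 26.7% of 15, while in Ctnna3 they were 6.15% of 65 and in Erc2 6.45% of 62. Coding genes with a low-ratio peak had a median span of 113 kb, against 25.8 kb for all 8957 coding genes with an eligible peak, and a longer gene offers more peaks.

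The lists of developmental regulators held none, although single regulators outside them did (Vax2 and Sox6, given above). There were 0 low-ratio peaks among the 4 eligible peaks over Hox genes, 50 over neuroectoderm regulators, 36 over mesoderm and endoderm regulators, 19 over trophoblast markers, 33 over primitive endoderm markers and 18 over clustered protocadherins, where the median ratio ran from 0.893 to 2.18. There were also 0 among 9 peaks of pluripotency genes, 22 of Polycomb machinery genes and 68 of transfer RNA genes. Imprinted genes held 2 of 85, in Usp29, a ubiquitin peptidase gene (chr7:6813323-6814823; 0.604), and in Airn, the antisense RNA that silences Igf2r (chr17:12794715-12798132; 0.638). Primed epiblast markers held 1 of 21, in the DNA methyltransferase gene Dnmt3a (0.649), and fibroblast markers 1 of 19, in the mesenchymal homeobox gene Prrx1 (0.621). Lists of this size can hold 0 at the 2.21% found over all eligible peaks, so a 0 is not read as a difference.

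Chemosensory and other gene families held shares on both sides of the 2.21% over all eligible peaks. Depth was not matched here, and eligible peaks with 100 to 150 input counts held 4.53%. Vomeronasal receptor genes had 7 of 162 eligible peaks (4.32%), among them Vmn2r27 (0.591) and Vmn2r60 (0.612), and olfactory receptor genes 8 of 287 (2.79%), among them Olfr103 (0.609). Their median ratios over eligible peaks were 0.788 and 0.833. Zinc finger genes named Zfp had 6 of 355 (1.69%), with 2 in Zfp385b. Immunoglobulin and T cell receptor segments had 2 of 133 (1.5%).

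Among microRNA genes, 7 of 316 eligible peaks (2.22%, near the 2.21% over all eligible peaks) were low-ratio peaks. Of them, 2 contained mature sequences in the RefSeq table. They are shown 5′ to 3′ with the seed, bases 2 to 8, in capitals, because they name which microRNAs the peaks cover; the 3 seeds differ.

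mmu-miR-129-5p: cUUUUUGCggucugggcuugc
mmu-miR-7683-5p: uUCCGUGUuucgucugaccacu
mmu-miR-7683-3p: uGGAAAGGuggaacacggaac

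The first comes from Mir129-1, in a peak on chromosome 6 (29021956 to 29023811) with a ratio of 0.644. The other two come from Mir7683 within Slamf7, a leukocyte surface receptor gene, in a peak on chromosome 1 (171641634 to 171642344) with a ratio of 0.638. Another peak lay in Sfmbt2 (chr2:10504346-10506156; 0.591), the host of a large microRNA cluster, over Mir467e and Mir466p.

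Along the chromosomes the low-ratio peaks were spread out. Their share of eligible peaks ran from 1.77% on chromosome 9 to 2.73% on chromosome 17. Joined at gaps of up to 100 kb, they made 1487 runs, of which 1277 were single peaks, 210 had 2 or more and 31 had 3 or more, so 460 (26.5%) had a low-ratio neighbour. Among eligible peaks within 100 kb of a low-ratio peak, 3.36% were low-ratio peaks themselves, against 2.21% overall. The longest runs were 5 peaks without genes on chromosome 18 and 4 each over Arhgef3, over Olfr103 and Olfr104-ps on chromosome 17 (37336811 to 37399419), over the Mup genes, over Smpd2 to Ccdc162 on chromosome 10 (41488653 to 41663416), over Lrguk and Gm32533 on chromosome 6 (34038431 to 34200055) and without genes on chromosome 18 (79735418 to 79909001). On chromosome 7 (13173113 to 13214509) all 4 eligible peaks of a 41.4 kb span at Gm38946 and Gm38947 were low-ratio peaks, at 0.597 to 0.634. A span is drawn from the first to the last low-ratio peak of a run, so its ends are low-ratio peaks by definition.

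The surroundings leaned slightly the same way. Other eligible peaks within 50 kb of a low-ratio peak had a median ratio of 0.841, against 0.874 around other eligible peaks and 0.867 around those under 250 input counts. Their input was 2.21 CPM per kb, against 2.10 and 2.10. The gap to the nearest peak had a median of 3355 bp, against 3251 bp for other eligible peaks of that depth. Neighbouring peaks share local sequence and copy number, whose part in these values was not tested.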

How the data were processed

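The authors deposited raw read counts, 1 whole number for each library and consensus peak, and a peak list with a score, a fold enrichment (ratio) and −log10 q per peak, per the file headers. The submitters' processing notes list the build mm10 and, without roles, DESeq2 1.26.0, featureCounts, MACS2 2.2.71 and BWA 0.7.17-r1188; the libraries used for peak calling are not given in the sources used here. Peak starts are printed as deposited. Samples were grouped by the genotype, antibody and time labels.

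The rule was applied to raw counts. Contrasts used edgeR 4.0.16 (R 4.3.3; quasi-likelihood, TMM, filterByExpr, Benjamini-Hochberg at 0.05 over all peaks): time beside line, background, transgene and time as additive terms, and induction as the transgene by time term. In the time and induction fits the prior degrees of freedom were 1856 and infinite, so SEs follow mostly depth. H3K27me3 over input used a condition block and interaction terms. The time and background models for H3K27me3 were tested on simulated counts of independent libraries without line effects, and the other models were not. The alternatives were total counts, DESeq2 1.42.0, limma-voom (limma 3.58.1), no filter, a mean count of 50, an input offset, chromosome 11 left out, no line block, other limits, minima, windows and gaps, and each library left out; fits without the line labelled KO control were chosen after seeing the data. Genes came from RefSeq GRCm38.p6. Named peaks were, per contrast, up to 8 called peaks in each direction with the largest changes and 1 direction in all 4 matched pairs, the 10 lowest ratios, the 5 on either side of the limit, the 5 with most input in all and per kb, the longest runs and list members; other calls and promoter peaks were named after their values were seen. The members and lists were chosen with earlier results of these data known. Ratio bounds are 95% exact binomial intervals of counts.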

Additional observations from a re-analysis of the deposited data

How the results depend on the processing

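By replicate number no paired analysis was possible because every condition had 1 library per assay and that number is 1 throughout; libraries were matched by line instead, as a block in the time fits and in the sign-flip test over 4 lines. The number of low-ratio peaks, 1737, follows the rule: 343 at a limit of 0.6, 5718 at 0.7, 581 with an input minimum of 200, 153 with TMM library sizes, 4009 with 0 h libraries only and 3214 with 48 h libraries only. An input minimum of 50 (2026), chromosome 11 included (2234) and the line labelled KO control left out (2287, of which 1300 are among the 1737) stayed within 1.5 times. Low-ratio peaks in runs numbered 460, and 282 and 699 with gaps of up to 50 and 200 kb. For background in H3K27me3, 21 calls became 0 with DESeq2, 3 with a mean count of 50 or more (249 peaks tested), 0 with input as an offset, 7 with chromosome 11 left out, 5 without the line labelled KO control and 10 to 17 with 1 library left out. With 1 library left out, 7 to 12 of the 21 themselves were still called. For background in input, 0 calls became 0 to 2, and for background in H3K27me3 over input, 1 call became 0 to 1 with 1 condition left out and 0 without the line labelled KO control. The share of counts changed sign for transgene in input outside chromosome 11 and the sex chromosomes (-0.287% against 0.452%) and for background in the ratio of shares at a limit of 0.7 (-0.215% against 0.919%); no share passed adjustment under these settings. The cause of these changes was not tested. The filter on low counts removed no H3K27me3 peak, so dropping it changed nothing. With 100 to 250 input counts in most peaks, the ratio of a single peak has wide bounds, and single-condition ratios describe counting error as much as level.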
